A study of Mus musculus with 24 samples.

Results

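The comparison described here set epididymal white fat (eWAT, a depot next to the testis) of SCN-clock mutant mice at circadian time 13 (CT13) against the same tissue of such mice at CT1, 12 h earlier in the cycle. It used 6 of the 24 arrays of the series, 3 of MUT mice at CT13 and 3 of MUT mice at CT1, each from a separate mouse. MUT mice were Syt10-Cre/Cre x Bmal1-flox/-, and the CON mice used beside them were Syt10-Cre/Cre x Bmal1-+/-, so that CON mice too were homozygous for Cre and carried 1 disrupted Bmal1 copy. Cre stood under the Syt10 promoter, and per the labels the MUT genotype removes the clock of the suprachiasmatic nucleus (SCN). By genotype, a cell that Cre does not reach keeps its floxed Bmal1 copy intact. All mice spent 2 weeks in light-dark cycles and were killed on the second day of constant darkness. Signals are on a log2 scale. For 22180 genes with a probe set of their own the brightest probe set was taken, and the 15526 genes above the 30th percentile of mean signal (7.416) were tested. A gene is called here at a Benjamini-Hochberg adjusted p under 0.05 in limma's moderated test, two-sided, fitted to all 24 arrays. Differences are CT13 minus CT1 on the log2 scale.

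The SCN of the hypothalamus is the pacemaker that aligns the clocks of other organs. In each cell BMAL1, encoded by Arntl, pairs with CLOCK or NPAS2 and drives genes that carry E-boxes, among them Per, Cry, Nr1d1, Nr1d2 and Dbp. PER and CRY proteins then inhibit this pair, while REV-ERB alpha and beta (Nr1d1, Nr1d2) repress Arntl and Nfil3 through elements that ROR receptors activate, which sets Arntl and Nr1d1 in opposite phases. Fat cells carry such a clock of their own, which acts on lipid storage and release.

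The labels disagree on the tissue, with eWAT in titles and treatment text but mediobasal hypothalamus as the source. Ranked by signal among the 15526 genes tested, the median of 11 tested adipocyte markers (of 12 listed) was at percentile 99.8, and that of 11 tested hypothalamus and neuron markers was at 29.2. Of the 19 hypothalamus and neuron markers listed, a further 7 lay below the level filter and 1 had no probe set of its own. Array medians ran from 7.802 to 7.936 over the series, and correlations between arrays ran from 0.982 to 0.9959. Syt10 lay near the level filter, at 7.39 ± 0.14 (SD, n = 3) in MUT fat at CT13 and at 7.42 ± 0.06 in MUT fat at CT1. Where the Arntl probes lie relative to the floxed part is not given in the sources used here, and these arrays are of fat, so they do not check the deletion in the SCN.

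Between CT13 and CT1, 8 genes were called in MUT fat (0.0515% of the genes tested), 3 of them higher at CT13 (0.0193%) and 5 lower (0.0322%). Of these 8 genes, 6 belong to the circadian clock. The 5 lower genes were the repressors Nr1d1, Nr1d2 and Per1, the output gene Dbp and Nenf. The 3 higher genes were Arntl, Nfil3 and the predicted gene Gm6958. The differences of 6 called genes were at least 1.5-fold, and those of 3 were at least 2-fold. The median difference over all genes was -0.02, the median absolute difference was 0.07, and the median SE of a difference was 0.08. At an unadjusted p under 0.05 there were 1454 genes (9.36%), 543 higher (3.50%) and 911 lower (5.87%). The 3 arrays at CT13 did not overlap the 3 at CT1 in 2156 genes (13.9%), which were higher at CT13 in 779 cases (5.02%) and lower in 1377 (8.87%). The count of called genes depended on single arrays. Leaving out MUT CT13 replicate 1, 2 or 3 gave 27, 7 or 3 called genes, and leaving out MUT CT1 replicate 1, 2 or 3 gave 3, 5 or 4.

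Among the repressors of the loop, Nr1d1, the gene of REV-ERB alpha, had the largest called difference. Its signal was 10.34, 9.80 and 9.84 in MUT fat at CT13, against 11.70, 11.80 and 11.69 in MUT fat at CT1. The 2 sets of arrays lay far apart, and replicate 1 was the highest of the CT13 arrays. Nr1d1 thus fell by 1.73 ± 0.17 (SE) on the log2 scale, a 3.33-fold lower signal (adjusted p = 1.25e-05), and it stayed called in 17 of 17 alternatives. Nr1d2, its paralog encoding REV-ERB beta, was at 8.94, 8.66 and 8.50 at CT13, against 10.06, 9.80 and 9.78 at CT1. No array overlapped, and the difference was -1.18 ± 0.19 (2.26-fold lower, adjusted p = 0.00948). The adjusted p of Nr1d2 was 0.0997 without MUT CT13 replicate 3 and 0.106 without MUT CT1 replicate 1.

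Per1, which encodes a subunit of the PER-CRY repressor complex, was at 10.18, 10.17 and 9.91 in MUT fat at CT13 and at 10.95, 10.91 and 10.82 in MUT fat at CT1. Its arrays kept apart as well, and Per1 was 1.75-fold lower at CT13 (-0.81 ± 0.14, adjusted p = 0.0235). Among fits without 1 array, the call held only without MUT CT13 replicate 1. The adjusted p of Per1 was 0.0523 and 0.27 without MUT CT13 replicates 2 and 3, and 0.173, 0.0949 and 0.088 without MUT CT1 replicates 1, 2 and 3. Its paralog Per3 was at 9.45, 9.05 and 8.77 at CT13, against 10.01, 9.53 and 9.74 at CT1, and did not pass (-0.67 ± 0.16, adjusted p = 0.196). The arrays of Per3 did not overlap, but its highest array at CT13, replicate 1, came close to the lowest at CT1. Without that array Per3 was called (-0.85, adjusted p = 0.0191).

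The remaining measured repressors did not pass. Cry1, the partner of PER in the complex, was at 8.65 ± 0.10 at CT13 and at 8.30 ± 0.07 at CT1 in MUT fat (SD, n = 3 each), with no overlap and an adjusted p of 0.242. Cry2 and Ciart, a repressor of the CLOCK complex, differed by -0.16 and -0.12. Bhlhe40, which encodes the repressor DEC1, was at 9.75, 10.78 and 10.84 in MUT fat at CT13, against 10.26, 9.61 and 9.87 at CT1. Here replicate 1 lay among the CT1 arrays and the other CT13 arrays lay above them all, and Bhlhe40 was called only without that replicate (0.90, adjusted p = 0.0385, against 0.54 and 0.426 with it). Its paralog Bhlhe41 showed the same order, with 8.49, 9.28 and 9.46 at CT13 and 8.78, 8.46 and 8.56 at CT1 (0.48 ± 0.24, adjusted p = 0.538).

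**Figure D1:**
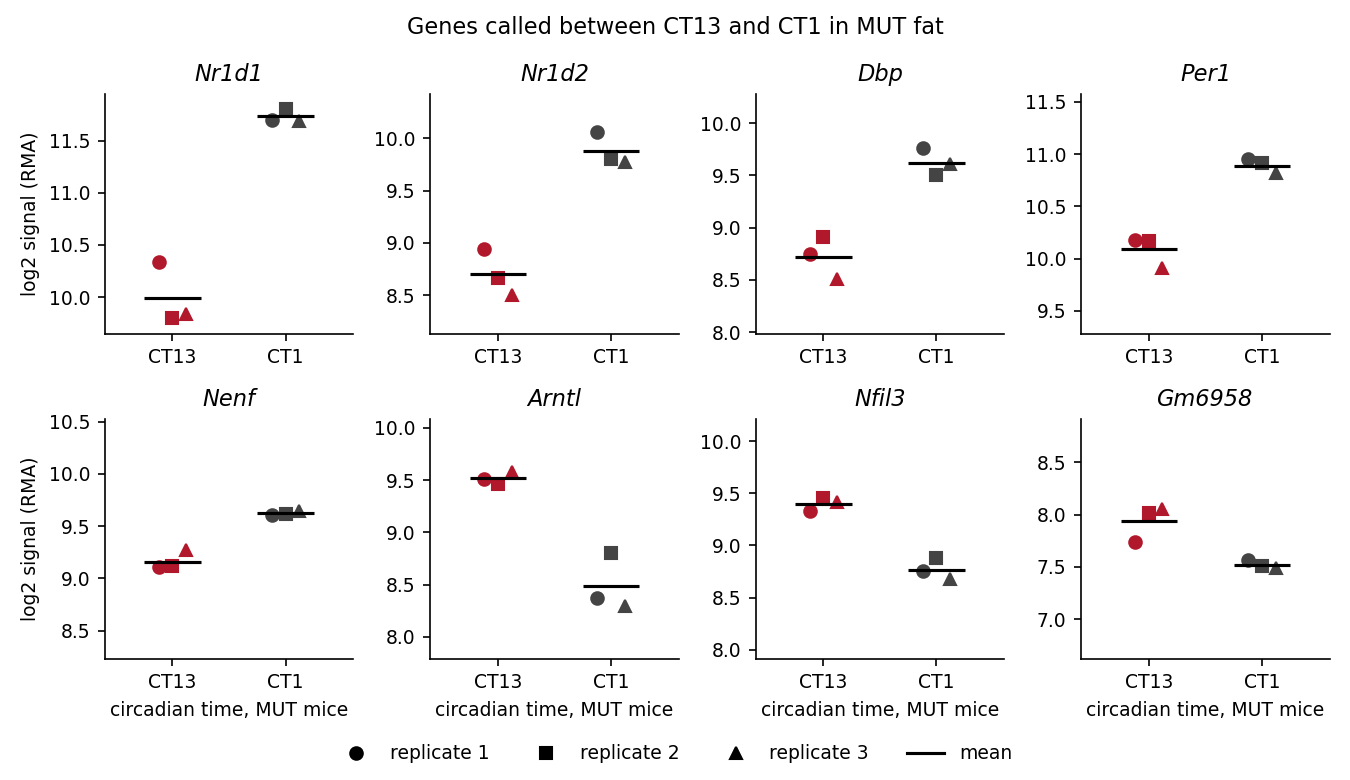
The log2 signal (vertical axis, RMA) of the 8 genes called between CT13 and CT1 in MUT fat, with 1 point per array, marked by replicate, and a line at the mean of 3. In each panel every CT13 array lies on 1 side of every CT1 array, and all panels span the same range on the log2 scale, so that the wide gap of Nr1d1 (-1.73) can be set against that of Gm6958 (0.42).

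Of the activators, Arntl stood at 9.51, 9.46 and 9.58 in MUT fat at CT13, against 8.37, 8.80 and 8.30 in MUT fat at CT1. All CT13 arrays lay above all CT1 arrays, among which replicate 2 was the highest. Arntl was 2.04-fold higher at CT13 (1.03 ± 0.14, adjusted p = 0.00274), and no single array ended its call. Npas2, which encodes the alternative partner of BMAL1, differed by 0.62 ± 0.17 and did not pass (adjusted p = 0.259). Its arrays overlapped, with 9.33, 9.26 and 9.98 at CT13 and 8.65, 9.37 and 8.69 at CT1. Clock (0.07), Arntl2 (0.06) and Rora (-0.15), which encodes a receptor that activates Arntl, had small differences that did not pass.

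Nfil3 encodes E4BP4, a repressor that binds the same D-box elements as DBP. In MUT fat it was at 9.33, 9.45 and 9.43 at CT13 and at 8.76, 8.88 and 8.68 at CT1. The 2 sets of arrays were tight and did not overlap, and Nfil3 was 1.55-fold higher at CT13 (0.63 ± 0.10, adjusted p = 0.00948). Its adjusted p was 0.0523 and 0.0791 without MUT CT13 replicates 2 and 3, and 0.0777 and 0.099 without MUT CT1 replicates 1 and 3.

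Promoter letters were looked up for the called clock genes in RefSeq windows of GRCm38.p6 that run from 250 bases before to 50 bases after a start site, of which 12084 tested genes and 7 of the 8 called genes have at least 1. The motifs searched on both strands were the core of the ROR and REV-ERB element (TAGGTCA), the E-box (CACGTG, which reads the same on both strands) and the D-box (TTATGTAA or TTACGTAA). The core TAGGTCA was present in 2.45% of the 12084 genes, the E-box in 10.8% and the D-box in 0.877%. Arntl and Nfil3, both higher at CT13, held the core TAGGTCA, and no other motif searched lay in their windows. Gm6958, the other higher gene, held none of the motifs in its window. The 4 lower genes with a window did not hold it. Of these, Per1 held an E-box, and Nr1d1, Nr1d2 and Dbp held none of the motifs in this window. The 3 genes with a match have 1 matching window each shown, with the matched letters in capitals. They were thus picked by the match, and Per1 was added after the search. Position 1 is the start site and negative positions lie before it. The windows lie at chr7:113207261-113207560 (Arntl, plus strand, match from position 31), chr13:52980990-52981289 (Nfil3, minus strand, match on the opposite strand from position -12) and chr11:69098699-69098998 (Per1, plus strand, match from position -166), and Arntl and Per1 each have 1 further window that is not shown. A match is a description of letters, and binding was not measured.
Arntl: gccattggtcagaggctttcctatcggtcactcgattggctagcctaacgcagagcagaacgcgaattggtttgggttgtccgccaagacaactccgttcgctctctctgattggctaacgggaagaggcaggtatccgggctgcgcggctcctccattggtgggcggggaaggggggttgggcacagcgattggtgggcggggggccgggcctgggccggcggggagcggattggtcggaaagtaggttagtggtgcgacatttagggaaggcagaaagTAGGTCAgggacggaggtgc
Nfil3: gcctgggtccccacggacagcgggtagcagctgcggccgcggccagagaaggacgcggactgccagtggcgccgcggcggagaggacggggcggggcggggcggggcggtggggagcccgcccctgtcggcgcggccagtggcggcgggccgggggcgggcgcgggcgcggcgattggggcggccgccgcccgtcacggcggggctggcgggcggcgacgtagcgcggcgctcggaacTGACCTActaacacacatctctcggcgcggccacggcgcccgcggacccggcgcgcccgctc
Per1: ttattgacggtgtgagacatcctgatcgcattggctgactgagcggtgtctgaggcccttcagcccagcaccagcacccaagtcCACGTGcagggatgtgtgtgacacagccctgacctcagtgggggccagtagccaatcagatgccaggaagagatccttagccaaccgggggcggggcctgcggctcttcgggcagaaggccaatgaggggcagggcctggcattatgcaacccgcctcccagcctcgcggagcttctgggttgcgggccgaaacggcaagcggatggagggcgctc

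Among the outputs of the clock, Dbp, which encodes a D-box activator, was called lower at CT13. Its signal was 8.75, 8.90 and 8.51 in MUT fat at CT13 and 9.76, 9.50 and 9.61 in MUT fat at CT1. The arrays did not overlap, and Dbp was 1.87-fold lower at CT13 (-0.90 ± 0.17, adjusted p = 0.0409). This was the weakest of the 8 calls. It held in 6 of 17 alternatives, and among fits without 1 array it held only without MUT CT13 replicate 2. The adjusted p of Dbp was 0.051 and 0.422 without MUT CT13 replicates 1 and 3, and 0.346, 0.0865 and 0.14 without MUT CT1 replicates 1, 2 and 3. Tef, a D-box activator related to Dbp, was at 8.88, 8.64 and 8.46 at CT13, against 9.39, 9.12 and 9.06 at CT1, and its adjusted p was 0.121 (-0.53 ± 0.11). Its arrays did not overlap, and without MUT CT13 replicate 1 it was called (-0.64, adjusted p = 0.0165). Usp2, a ubiquitin protease gene, Hlf, the other D-box activator gene of this family, Wee1, which encodes a kinase that delays mitosis, and Tspan4, a tetraspanin gene, differed by 0.19, 0.09, 0.01 and -0.01 between CT13 and CT1 in MUT fat, and none passed. Over the 3 clock lists, 6 of 21 measured genes were called in MUT fat, against 0.0515% of all genes. An unadjusted p under 0.05 was found for 12 of the 21 (9.36% of all genes), and no overlap between arrays for 13 (13.9% of all genes). These lists were chosen with earlier results of the same arrays known. Their median absolute difference was 0.48, against 0.07 over all genes. Listed genes that were not tested included Per2, Por and Tsku, for want of a probe set of their own, and Lonrf3, which lay below the level filter.

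The 2 called genes outside the clock lists had the smallest differences. Nenf, which encodes the secreted protein neudesin, was at 9.11, 9.12 and 9.27 in MUT fat at CT13 and at 9.61, 9.62 and 9.65 in MUT fat at CT1. The CT1 arrays agreed closely and all lay above the CT13 arrays, and Nenf was 1.38-fold lower at CT13 (-0.46 ± 0.07, adjusted p = 0.00283). No single array ended this call. The gene has a dimmer probe set as well, at a mean signal of 7.04, whose difference was -0.09, and the mean of both probe sets was not called (-0.28, adjusted p = 0.174). Gm6958, a predicted gene with no role given here, was at 7.74, 8.02 and 8.05 in MUT fat at CT13, against 7.57, 7.51 and 7.49 at CT1. It was 1.33-fold higher at CT13 (0.42 ± 0.07, adjusted p = 0.0124) at a signal not far above the level filter. Its adjusted p was 0.0872 and 0.191 without MUT CT13 replicates 2 and 3 and 0.0558, 0.0865 and 0.099 without MUT CT1 replicates 1, 2 and 3.

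The levels at the other sampled times in MUT fat are set beside CT13 and CT1, as a description of means with SD over 3 arrays. Whether these genes cycle in MUT fat was not tested. Nr1d1 in MUT fat was at 11.73 ± 0.06 (CT1), 10.83 ± 0.07 (CT7), 9.99 ± 0.30 (CT13) and 11.66 ± 0.38 (CT19), so that CT13 was its lowest time and CT1 its highest. The order of CT1 and CT19 lay within their spread. Arntl in MUT fat stood at 8.49 ± 0.27, 8.19 ± 0.24, 9.52 ± 0.06 and 9.15 ± 0.21 at these times, highest at CT13 while Nr1d1 was lowest. Dbp in MUT fat had means of 9.62 ± 0.13, 9.82 ± 0.11, 8.72 ± 0.20 and 9.02 ± 0.39 in that order of times, and those of Nfil3 were 8.77 ± 0.10, 8.77 ± 0.12, 9.40 ± 0.06 and 8.80 ± 0.10. Nfil3 was thus raised at CT13 alone among the sampled times. For Wee1 and Usp2, which differed little between CT13 and CT1, the highest MUT mean lay at CT7 (8.79 ± 0.20 and 9.69 ± 0.14), a time that a 12-h comparison of these 2 time points does not sample.

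**Figure D2:**
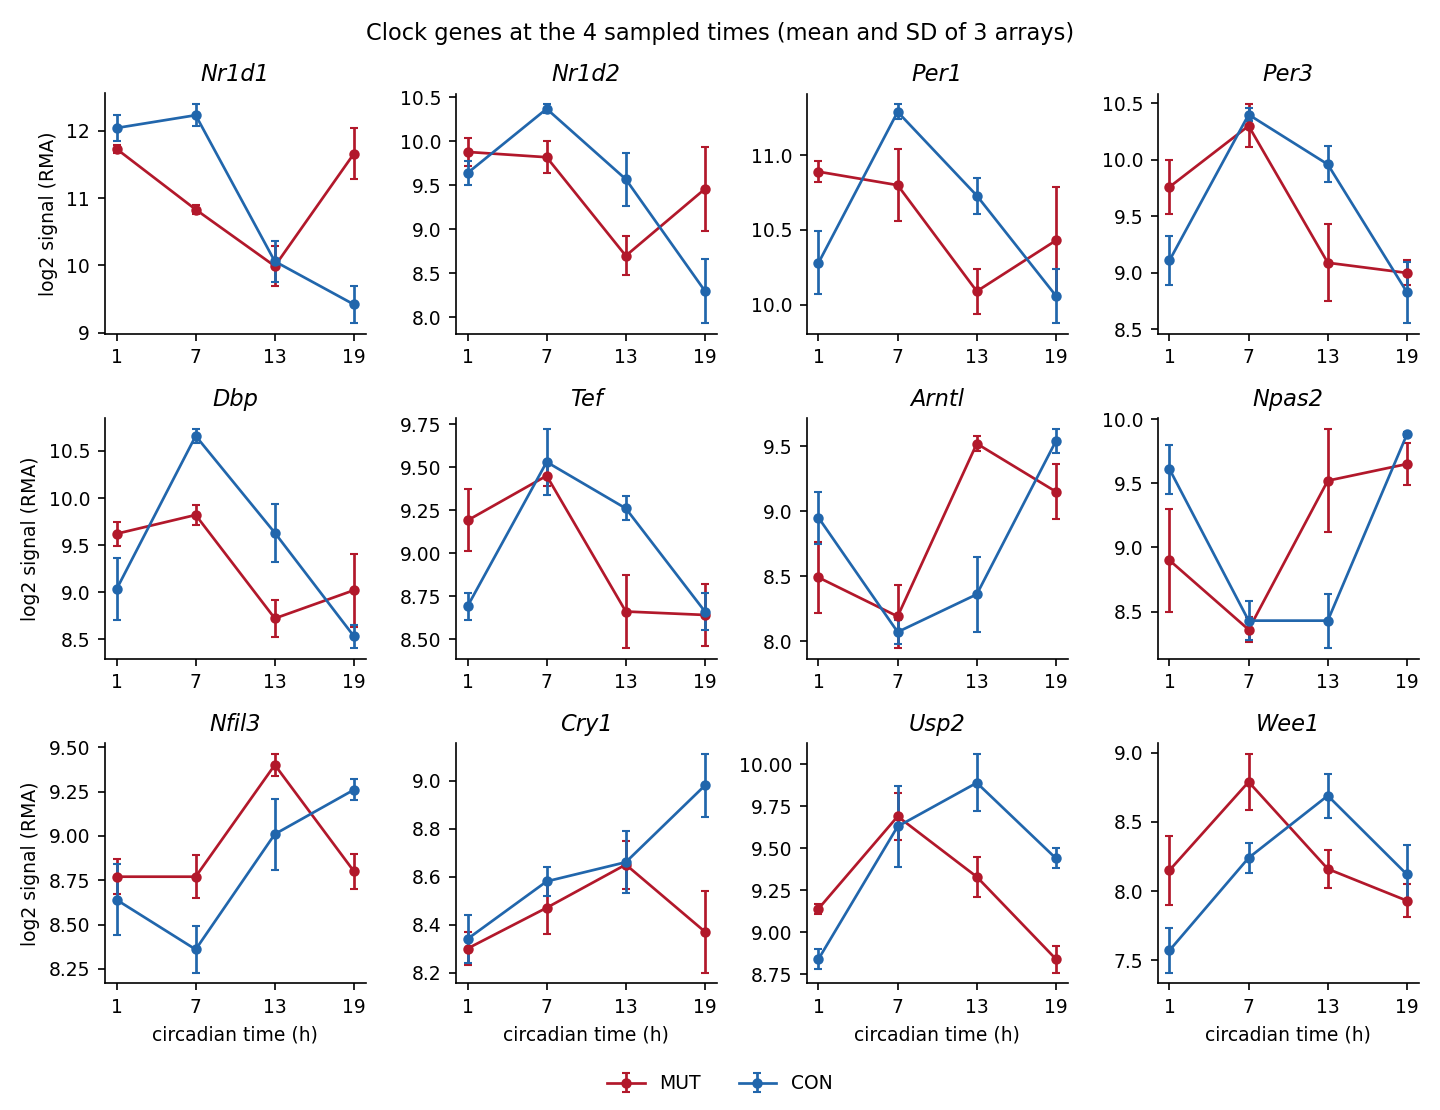
Log2 signal (vertical axis, RMA) of 12 clock genes at CT1, CT7, CT13 and CT19 (horizontal axis, in h), where points and bars give the mean and SD of 3 arrays, MUT in red and CON in blue. Nr1d1 is near 10 in both genotypes at CT13 and lies apart between them at CT7 and CT19. The means of Arntl, Npas2, Nr1d2, Per1, Per3, Dbp, Tef, Usp2 and Wee1 cross over, with MUT on the other side of CON at CT13 than at CT1.

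In CON fat the same 12-h comparison, which shares no array with the one in MUT, called 1103 genes (7.10%), 262 higher at CT13 (1.69%) and 841 lower (5.42%). The split depended on the normalization. With all arrays shifted to the same median it was 175 higher and 1306 lower of 1481, and with quantile normalization 320 higher and 629 lower of 949. The interquartile range of an array's signals was 1.942 to 2.02 in CON at CT13 and 2.055 to 2.069 in CON at CT1. Its part in the split was not tested. The median SD between the 3 arrays of a group was 0.095 in MUT at CT13, 0.087 in MUT at CT1, 0.095 in CON at CT13 and 0.079 in CON at CT1, so the spread was of like size, while the median absolute difference was 0.07 in MUT and 0.11 in CON. Counts of calls do not test whether the genotypes differ. That was tested gene by gene as the MUT difference minus the CON difference, from the arrays of both comparisons, and 18 genes were called (0.116%), 7 with a more positive difference in MUT (0.0451%) and 11 with a more negative one (0.0708%). In 15 of the 18 the 12-h difference had opposite signs in MUT and CON, against 6118 of all 15526 genes. Selection on a large difference between genotypes favours opposite signs, so this count is not separate evidence. Members of the clock lists made up 9 of the 18, out of 21 measured, against 0.116% of all genes called. These lists were chosen with earlier results of the same arrays known.

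The activators Npas2 and Arntl were the highest of these. Arntl was at 9.51, 9.46 and 9.58 at CT13 and at 8.37, 8.80 and 8.30 at CT1 in MUT fat, whereas in CON fat it was at 8.27, 8.68 and 8.13 at CT13 and at 9.13, 9.0 and 8.73 at CT1. It was higher at CT13 in MUT and lower at CT13 in CON (-0.59 ± 0.14, adjusted p = 0.0171), and the genotypes differed by 1.62 ± 0.20 (adjusted p = 0.000467). Npas2 differed by 0.62 in MUT and by -1.18 in CON, a difference between genotypes of 1.80 ± 0.24 (adjusted p = 0.000821). In the other direction stood Per3 (-1.52 ± 0.22, adjusted p = 0.0017), Dbp (-1.50 ± 0.24, adjusted p = 0.00518), Per1 (-1.26 ± 0.20, adjusted p = 0.00522) and Tef (-1.10 ± 0.15, adjusted p = 0.00137). Dbp, for example, was at 8.75, 8.90 and 8.51 at CT13 and at 9.76, 9.50 and 9.61 at CT1 in MUT fat, against 9.62, 9.33 and 9.95 at CT13 and 8.68, 9.09 and 9.33 at CT1 in CON fat. The lowest CON array at CT13 met the highest at CT1, and in MUT the order was turned round. The means of these 4 genes were lower at CT13 in MUT and higher at CT13 in CON, where Per1 alone of the 4 did not pass (0.45 ± 0.14, adjusted p = 0.0568).

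Wee1, Usp2 and Tspan4 also differed between genotypes, by -1.11 ± 0.18, -0.87 ± 0.14 and -0.80 ± 0.13. Here the CON differences were the larger ones. Wee1 differed by 0.01 in MUT and by 1.12 in CON, Usp2 differed by 0.19 in MUT and by 1.05 in CON, and Tspan4 differed by -0.01 in MUT and by 0.79 in CON. All 7 measured clock outputs were called higher at CT13 in CON, where 1.69% of all genes were. In MUT, 1 was called higher (Nfil3) and 1 lower (Dbp), against 0.0193% and 0.0322% of all genes. The list was chosen with earlier results of these arrays known, and counts of calls do not test whether the genotypes differ. The repressor gene Nr1d1 moved alike between CT1 and CT13: it was at 10.14, 9.73 and 10.31 at CT13 and at 11.81, 12.13 and 12.19 at CT1 in CON fat. It fell by 1.73 in MUT and by 1.98 in CON, and the genotypes did not differ detectably (0.25 ± 0.24, adjusted p = 0.739). At the other times its means lay apart. They were 12.23 ± 0.16 (SD) in CON and 10.83 ± 0.07 in MUT at CT7, and 9.42 ± 0.27 in CON and 11.66 ± 0.38 in MUT at CT19. Nfil3 was higher at CT13 in MUT by 0.63 and in CON by 0.38 (difference 0.25 ± 0.14, adjusted p = 0.544). Nr1d2 differed by -1.18 in MUT and by -0.06 in CON, and the difference between genotypes did not pass (-1.11 ± 0.27, adjusted p = 0.118). In CON the calls of Arntl, Cry1, Dbp, Nfil3, Clock and Hlf ended when 1 of the CON arrays was left out, with adjusted p-values of at most 0.0836, 0.138, 0.171, 0.125, 0.0535 and 0.0515 in that order. With a macrophage marker score as a covariate, Arntl (-0.50, adjusted p = 0.0524) and Dbp (0.51, adjusted p = 0.0871) were not called in CON.

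Outside the clock lists, 9 genes differed between genotypes in the 12-h comparison, and for these the MUT difference was not called. Tsc22d3, which encodes the glucocorticoid-induced protein GILZ, was at 9.44, 9.39 and 9.29 at CT13 and at 9.50, 9.46 and 9.55 at CT1 in MUT fat, against 9.85, 9.79 and 9.70 at CT13 and 8.85, 9.02 and 9.05 at CT1 in CON fat. Its arrays lay within a narrow band in MUT and far apart in CON, with a difference between genotypes of -0.94 ± 0.11 (adjusted p = 0.000298), the smallest p of all 18. Pfkfb3, a regulator of glycolysis, differed by -0.04 in MUT and by -0.79 in CON (0.75 ± 0.13, adjusted p = 0.0122). Dtx4, a ubiquitin ligase gene, differed by 0.34 in MUT and by -0.75 in CON (1.10 ± 0.19, adjusted p = 0.00752). The kinase gene Map3k6 differed by -0.32 in MUT and by 0.48 in CON, and the probe set annotated to the microRNA gene Mir339 by -0.28 in MUT and by 0.55 in CON. Gtf2ird1 (0.77), Efr3a (0.69) and the lysosomal phospholipase gene Pla2g15 (0.68) made up the positive side. Neurog3 (-0.57), named here after its values were seen, completed the negative side.

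**Figure D3:**
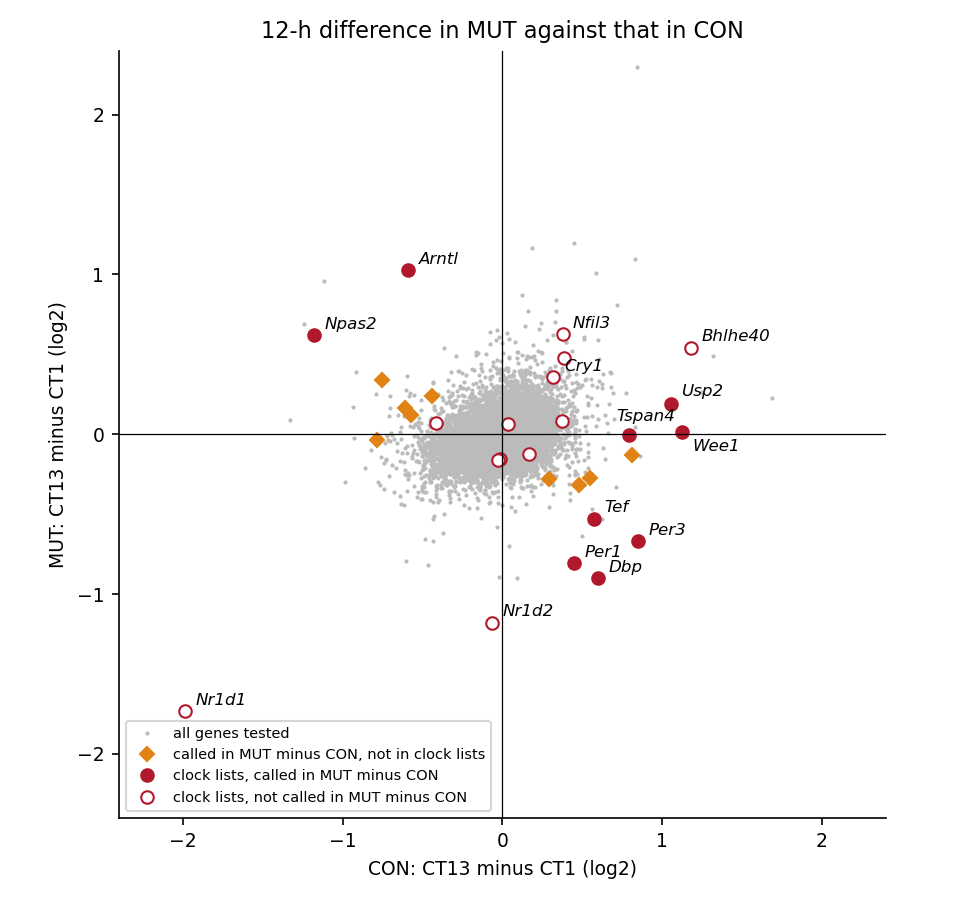
The 12-h difference (CT13 minus CT1, log2) in MUT fat on the vertical axis against that in CON fat on the horizontal axis, with 1 point per gene for 15526 genes. Nr1d1 lies at the lower left, having fallen by 1.73 in MUT and by 1.98 in CON, while Arntl and Npas2 lie at the upper left and Per3, Dbp, Per1 and Tef at the lower right, where the genotypes have opposite signs.

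The 1103 genes called in CON were followed in MUT fat. The MUT arrays entered the level filter and each gene's estimate of spread, not the CON differences, and with the CON arrays of the 2 time points alone 488 of the 1103 were called. Of these genes, 870 (78.9%) had the same sign in MUT, against 9408 of all 15526 genes. Their median difference in the direction of CON was 0.08 in MUT and 0.33 in CON, and 4 of them were called in MUT as well. Those lower in CON kept their sign in MUT in 710 of 841 cases (84.4%), and those higher in CON in 160 of 262 (61.1%). Over all genes the MUT differences leaned to lower values at CT13. Their median was -0.02, and at an unadjusted p under 0.05 in limma's test 3.50% were higher and 5.87% lower. The part of this lean in the 2 shares was not tested. Among the 73 that were at least 1.5-fold apart in CON the medians were 0.12 in MUT and 0.69 in CON. The difference between genotypes itself was called for 17 of the 1103.

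None of the 270 measured members of the 16 other functional lists, clock genes left out, was called in MUT fat, where 0.0515% of all genes were. With so few calls over all genes, the lack of one here says little about these lists. An unadjusted p under 0.05 was found for 32 of the 270 (11.9%), 11 higher and 21 lower, against 9.36% of all genes. In CON 35 of the 270 were called, where 7.10% of all genes were. The lists covered synthesis, release and oxidation of fatty acids, cholesterol, insulin and glucose use, adipokines, oxidative phosphorylation, matrix and cell cycle. They also covered heat shock, cold-inducible and unfolded protein responses, immediate early genes, glucocorticoid targets, inflammation and interferon. The members with values below were picked after their values were seen. Of 23 genes of fatty acid and triglyceride synthesis, 17 had differences above 0 and the median was 0.09. The lowest was Pck1, which encodes the enzyme that supplies glycerol backbones in fasted fat, at 12.54, 12.40 and 11.66 in MUT fat at CT13, against 12.99, 12.73 and 12.74 at CT1 (-0.62 ± 0.22, adjusted p = 0.382). Of 21 lipolysis and fatty acid handling genes, 10 lay above 0 with a median of 0.00. Angptl8, whose protein regulates lipoprotein lipase, was at 10.21, 11.46 and 12.21 in MUT fat at CT13 and at 9.84, 10.22 and 10.53 in MUT fat at CT1. The CT13 arrays were spread widely and overlapped those at CT1, and the difference of 1.10 ± 0.33 did not pass (adjusted p = 0.301).

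Of 25 oxidative phosphorylation genes, 22 were below 0 at a median of -0.10, with Ndufa1, a complex I subunit gene, the lowest (-0.32 ± 0.11, adjusted p = 0.337). Of 20 extracellular matrix genes, 16 were below 0 at a median of -0.09. These lists are bright, at median percentiles of 94.2 and 88.0, and bright genes as a whole lay lower at CT13: of 10 equal bins of genes by signal, the brightest had 31 higher and 118 lower at an unadjusted p under 0.05, and the dimmest had 77 higher and 58 lower. The interquartile range of an array's signals was 2.065 to 2.068 in MUT at CT13 and 2.09 to 2.113 in MUT at CT1. The part of that spread in the medians of these lists was not tested. Of 18 glucocorticoid targets, 12 were below 0, and Per1, which is also a clock gene, was the member called. Zbtb16, which encodes the transcription factor PLZF, was at 11.26, 10.83 and 10.36 in MUT fat at CT13, against 11.79, 11.75 and 11.62 at CT1, and just missed the threshold (-0.90 ± 0.18, adjusted p = 0.065). Hspa8, a chaperone gene, differed by 0.30 ± 0.07 in MUT and by 0.37 ± 0.07 in CON, with adjusted p-values of 0.24 and 0.00589. Fdft1, which encodes squalene synthase, differed by 0.42 ± 0.12 in MUT fat (adjusted p = 0.283), while Hmgcs1, earlier in the same pathway, differed by -0.34 ± 0.14 (adjusted p = 0.42).

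Some genes outside the clock differed by more than Nenf and Gm6958 and did not pass. Gdpd3, a lysophospholipase gene, was at 11.02, 11.45 and 11.18 in MUT fat at CT13, against 7.72, 8.98 and 10.07 in MUT fat at CT1. No array overlapped, yet the CT1 arrays were far from each other, and the difference of 2.30 ± 0.94 had an adjusted p of 0.433. Osgin1, a gene induced by oxidative stress, was at 10.01, 9.67 and 10.65 at CT13 and at 9.14, 9.54 and 9.34 at CT1 (0.77 ± 0.18, adjusted p = 0.188). Fam214a was at 9.80, 9.45 and 9.54 at CT13, against 10.22, 10.29 and 10.24 at CT1 (-0.65 ± 0.14, adjusted p = 0.157), and it was called lower at CT13 in CON (-0.49 ± 0.14, adjusted p = 0.0387). Gpnmb, a gene of lipid-laden macrophages, was at 9.32, 11.10 and 9.03 in MUT fat at CT13 and at 8.98, 8.93 and 8.51 at CT1, so that replicate 2 made most of its difference of 1.01 ± 0.35 (adjusted p = 0.36). These genes were also picked after their values were seen.

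Markers of other cell types in the fat pad were set beside these results. Of 15 macrophage markers, 14 were above 0 in MUT fat at a median of 0.30, with 7 higher and 1 lower at an unadjusted p under 0.05 and none called. Of all genes, 3.50% were higher and 5.87% lower at that threshold. In CON fat the median difference of the 15 markers was 0.14, also with none called. The median deviation of the 15 markers from their means over all arrays was 0.07, 0.08 and 0.35 in MUT at CT13, against -0.10, -0.05 and -0.02 in MUT at CT1. All MUT arrays at CT13 lay above all MUT arrays at CT1, with replicate 3 the highest. In CON the deviation ran from -0.06 to 0.36 at CT13 and from -0.16 to 0.09 at CT1, with overlap. The highest difference was that of Cd68, a lysosomal protein gene of macrophages, which was at 9.99, 10.68 and 10.45 in MUT fat at CT13, against 9.62, 9.82 and 9.81 at CT1 (0.62 ± 0.17, adjusted p = 0.259). In bulk tissue a change in the number of cells of a type and a change in RNA per cell cannot be told apart. With this macrophage score as a covariate 6 genes were called in MUT, without Per1 and Gm6958 (adjusted p = 0.0727 for both), while their differences were -0.84 and 0.41. Of 7 mast cell markers, 4 lay below the level filter, and the median difference of the 3 tested was 0.27. The highest was the protease gene Cpa3, which was at 8.07, 7.89 and 8.42 in MUT fat at CT13 and at 6.99, 7.58 and 7.28 at CT1 (0.84 ± 0.23, adjusted p = 0.259), and the lowest was the receptor gene Kit (-0.13). Cd68 and the mast cell genes were picked after their values were seen. Mesothelium markers stood at a deviation of -0.07, 0.87 and 0.00 in MUT at CT13, against 0.07, 0.12 and -0.17 in MUT at CT1, so that replicate 2 at CT13 stood apart. The median deviation of the 11 adipocyte markers stayed within 0.03 of 0 in all 6 arrays, and their differences ran from -0.08 (Lipe) to 0.09 (Pnpla2). None of the 103 measured markers was called in MUT, where 0.0515% of all genes were. Beyond the covariate, the part of the markers in the 12-h differences was not tested.

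**Figure D4:**
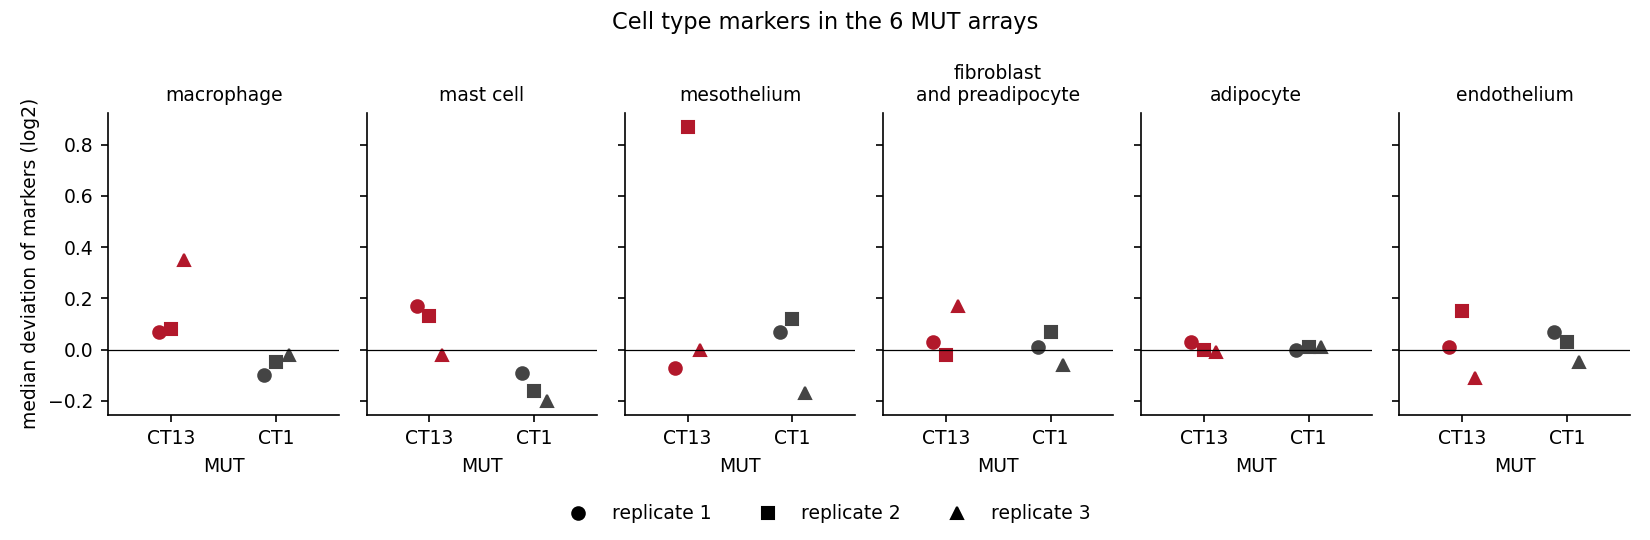
Median deviation of each marker list from its genes' means over all 24 arrays (vertical axis, log2) in the 6 MUT arrays, with 1 point per array, marked by replicate. Macrophage markers lie above 0 in the 3 CT13 arrays and below 0 in the 3 CT1 arrays, mesothelium markers reach 0.87 in 1 CT13 array, and adipocyte markers stay near 0.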

How the data were processed

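Gene expression was measured on 24 Affymetrix arrays of mouse eWAT in 8 groups of 3 (MUT and CON at CT1, CT7, CT13 and CT19), with 1 array per mouse. The deposited values are log2 signals per probe set, made by the authors with RMA in Affymetrix Expression Console, per the submitters' processing notes. Which versions, settings and genome build lay behind them was not given in the sources used here. RMA normalizes the arrays together, so a change shared by most genes would be removed. Of 34390 probe sets, 23521 carry 1 symbol, 1814 several and 9055 none, and 193 single symbols had no match in the RefSeq annotation of GRCm38.p6, which served for names and promoter windows.

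A model with 8 group means and 16 residual degrees of freedom was fitted with limma 3.58.1 in R 4.3.3, with contrasts for CT13 minus CT1 in MUT, in CON, and for their difference. P-values were adjusted by Benjamini-Hochberg over 15526 genes, at a threshold of 0.05. Errors are SE of this model unless given as SD. The code was tested on simulated data. The labels give no batch, and precision is limited by 3 arrays per group. Named are the members of the 3 clock lists, Syt10, all genes called in MUT, the 8 highest and 8 lowest called differences between genotypes, and up to 4 called members of each other list. Further genes are marked in the text as picked after their values were seen. Promoters were to be shown for up to 4 called clock genes with the smallest p; only windows with a motif match are printed, and Per1, outside that rule, was added after the search. The members and the gene lists, 33 with the 14 of cell markers, were chosen with earlier results of these data known. Alternatives were quantile normalization, a median shift, no level filter or one at the 60th percentile, averaged probe sets per gene, array weights, trended and robust variance, the compared arrays alone, the title letters as a block, each array left out, a 1.5-fold minimum and, chosen after seeing the data, a macrophage marker score as a covariate. Python 3.11.15 and matplotlib 3.10.9 drew the figures.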

Additional observations from a re-analysis of the deposited data

Results flagged for a closer look

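For 18 genes the 12-h difference itself differed between the genotypes, as tested by the MUT difference minus the CON difference (log2, limma, adjusted p under 0.05). The clock activators Npas2 (1.80) and Arntl (1.62) were the most positive. Dtx4 (1.10), Gtf2ird1 (0.77), Pfkfb3 (0.75), Efr3a (0.69) and Pla2g15 (0.68) followed. The most negative were the clock repressors and outputs Per3 (-1.52), Dbp (-1.50), Per1 (-1.26), Wee1 (-1.11) and Tef (-1.10). Tsc22d3 (-0.94), Usp2 (-0.87), Mir339 (-0.82), Map3k6 (-0.80), Tspan4 (-0.80) and Neurog3 (-0.57) were smaller.

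Of these calls, 4 ended when 1 array was left out. Pla2g15 had an adjusted p of 0.0575 without MUT CT13 replicate 3, 0.0861 and 0.0653 without MUT CT1 replicates 1 and 3, 0.0544 and 0.0631 without CON CT13 replicates 1 and 3, and 0.0794 without CON CT1 replicate 1. Gtf2ird1 had 0.0575 without MUT CT13 replicate 3, 0.0657 without MUT CT1 replicate 1, 0.0584 without CON CT13 replicate 3, and 0.0521 and 0.0535 without CON CT1 replicates 2 and 3. Efr3a had 0.0575 without MUT CT13 replicate 3, 0.0653 without MUT CT1 replicate 3, 0.0633 without CON CT13 replicate 1 and 0.0664 without CON CT1 replicate 1. Pfkfb3 had 0.057 without MUT CT13 replicate 3. Clock, not called with all arrays, was called without CON CT13 replicate 2 (0.58, adjusted p = 0.041).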

How the results depend on the processing

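None of the named genes changed sign in a called value. Counts of called genes were 8 in MUT, 1103 in CON and 18 for the difference. With array weights they were 5 in MUT and 1743 in CON. With the arrays of the compared groups alone they were 1 (Nr1d1) in MUT, 556 in CON and 11 for the difference, a fit with fewer arrays to estimate the spread. At a minimum of 1.5-fold the CON count was 73. Without each array in turn, the counts ran from 3 to 27 in MUT, from 275 to 1022 in CON and from 16 to 38 for the difference. In CON the count moved by over 1.5 times without CON CT13 replicate 1 (275) and without CON CT1 replicates 1 (473) and 3 (305), and for the difference without MUT CT13 replicate 2 (38), MUT CT1 replicate 2 (34) and CON CT13 replicate 2 (33). The cause was not tested. The remaining settings with all arrays gave 6 to 8 in MUT, 888 to 1481 in CON and 17 to 25 for the difference. Arrays that share a title letter correlated in their deviations by 0.02, 0.02 and 0.21 in MUT and by -0.17, -0.10 and -0.04 in CON. Arrays with different letters correlated by -0.19 to 0.16 in MUT and by -0.08 to 0.18 in CON. So few pairs cannot decide whether the letters mark a pairing or a batch. With the letters as a replicate block the counts were 6 in MUT, 932 in CON and 18 for the difference, and Per1 (adjusted p = 0.0514) and Dbp (0.0878) were not called in MUT. The median SE of a 12-h difference was 0.08, and the smallest called difference was 0.42 in MUT and 0.17 in CON.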
